A study of Homo sapiens with 6 samples.

Results

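The 10 genes described here, GAPDH, ENO1, PKM, LDHA, PGK1, ALDOA, TPI1, PGAM1, GPI and HK2, encode enzymes of glycolysis and of the lactate step that follows it, and they are 10 of the 60708 gene rows in each count table. They were selected on the low GAPDH counts in the AGO2 pull-down of miR-99b-5p mimic cells against its flow-through, and the question was whether the rest of the pathway shares that loss. The low AGO2-IP values of GAPDH in the mimic libraries therefore chose the set, and the AGO2-IP over flow-through values of the mimic libraries are given as a description that supports nothing by itself. The other 9 genes were named for their place in the pathway.

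The source was Ago-RIP-seq of MDA-MB-231 cells, an established human line of triple-negative breast cancer, transfected for 18 hours with 25 nM of either a miR-99b-5p mimic, a synthetic copy of the miRNA, or its scrambled control. AGO2 and the RNA it holds were pulled down with an antibody (AGO2-IP, or IP), and the flow-through (FT) is the RNA not retained by the beads. The 6 libraries were 2 mimic IP, 2 mimic FT, 1 control IP and 1 control FT, with no library of untransfected cells and no IgG pull-down among them. The methods speak of independent biological replicates for each condition, while the labels mark replicates for the mimic libraries alone and give 1 control library per fraction. What was cultured separately is not spelled out, so the p-values below measure the spread between these libraries, which may be partly technical.

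Glycolysis splits glucose into pyruvate. Its early steps spend ATP to make a pair of interconvertible triose phosphates, and its later steps oxidise them and return ATP. Tumour cells often run the pathway at a high rate and reduce the pyruvate to lactate, and the mRNAs of its enzymes are among the most abundant in many cultured lines. AGO2 is the protein that carries a miRNA to its targets, usually through pairing of the miRNA seed, its bases 2 to 8, with the target mRNA.

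The sequence introduced by the mimic and the stretches of these genes that bear on it are shown first, because a seed match is what would make a glycolysis mRNA a predicted partner of this miRNA. The mature miRNA comes from RefSeq (GRCh38.p14, chr19:51692618-51692639, plus strand), is 22 bases long and has its seed in capitals.
hsa-miR-99b-5p: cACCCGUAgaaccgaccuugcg
The letters searched in the canonical GENCODE transcript of each gene, on the transcript strand only, were ACGGGT, which pair with bases 2 to 7. They occurred in 1 of the 10 transcripts, GPI, and in 17.1% of the 11747 protein-coding transcripts tested. The GPI match lies in the 3′ UTR, in exon 18 of 18, at chr19:34401217-34401222 of GRCh38 on the plus strand. It pairs with bases 2 to 7 alone and not with base 8, so it is not a match to the whole seed. The matched letters are in capitals below.
GPI site: ttttgtagagagACGGGTcttttttttttt
GAPDH itself holds no such letters in its 1285-base transcript. The study used GAPDH as the reference mRNA of its quantitative RT-PCR, and the primers of that assay are shown because they tell where on the transcript that measurement sits.
GAPDH forward primer: ttcgacagtcagccgcat
GAPDH reverse primer: tgaaggggtcattgatggca
The forward primer matched exon 1 at chr12:6534534-6534551 and the reverse primer exon 3 at chr12:6536557-6536576 of GRCh38, in a transcript of 9 exons, and they bound a product of 171 bases.

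The libraries differed in depth and make-up. Counts on genes ran from 38022779 to 48544756 in the 4 mimic libraries and were 8076375 in the control IP and 7772149 in the control FT. Read pairs that were unmapped, mapped to several places or lay on no single gene made up 95.03% of the control IP and 92.26% of the control FT library, against 21.45% to 47.16% in the mimic libraries. Mitochondrially encoded genes held 43.4% of the gene counts of the control FT and 3.48% or less of the others. The mimic FT libraries were further apart (SD of the log2 difference over 13078 genes 1.44) than the mimic IP libraries (0.84). All 8 markers expected to be high in this line, VIM and CD44 among them, were at 10 CPM or more in every library, and the 4 blood-cell markers summed to 0.473 to 2.72 CPM. Of 7 genes expected to be low, ESR1, PGR, CDH1 and FOXA1 were under 10 CPM in every library, while ERBB2 was at 10 CPM or more in all 6. GATA3 ran from 8.26 CPM in mimic IP 1 to 24.8 CPM in the control FT, and EPCAM from 2.80 CPM in mimic FT 2 to 11.8 CPM in the control IP. CPM here means a gene's counts scaled to a common total of counts on genes, and a share of a bulk library cannot tell apart fewer cells holding a transcript from less of it per cell.

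GAPDH counting also needs a remark before the values. GAPDH lies on chromosome 12 from 6534512 to 6538374 of GRCh38, plus strand, and an antisense lncRNA model, ENSG00000269968, covers positions 6537794 to 6538370 of it on the other strand. The deposited unstranded counts leave out read pairs on genes that overlap, so GAPDH kept 47.9% to 56.4% of the counts that the stranded columns of the same tables sum to. For the other 9 genes that share was 98.3% or more in every library. ALDOA (chromosome 16, 30064164 to 30070457, plus strand) is covered almost whole by a protein-coding model on the same strand, ENSG00000285043, from 30053123 to 30070414. ALDOA held only 116 to 1799 counts per library, so its level here is not that of the ALDOA mRNA and its values are given as counted.

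The loss of GAPDH from the AGO2-IP was not common to the pathway. In the mimic libraries GAPDH, ENO1, GPI, TPI1 and the sparsely counted ALDOA were lower in the AGO2-IP than in the flow-through, LDHA, PGAM1, PGK1 and HK2 were higher, and PKM was near 0. Consecutive enzymes stood on opposite sides, GAPDH against PGK1 and PGAM1 against ENO1. The control pair gave the same sides for 8 of the 10 genes, while TPI1 was near 0 there and PKM, which took no side with the mimic, was higher.

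GAPDH, the dehydrogenase that oxidises the triose phosphate and yields NADH, had 6095 and 6739 counts in the mimic IP libraries against 100954 and 46215 in the mimic FT libraries. In CPM these are 130 and 177 against 2148 and 952, so the groups did not overlap although the flow-through libraries differed from each other 2.26-fold. The control IP held 224 CPM and the control FT 637 CPM. The mimic log2 fold change, fitted with edgeR on TMM-normalized counts, was -3.29 (SE 0.639, n = 2 against 2), a flow-through level 9.77-fold that of the AGO2-IP. The 4 differences of an IP from an FT library of mimic cells ran from -3.86 to -2.68. The control log2 ratio was -2.40, with a 95% counting interval of -2.47 to -2.32. With the stranded columns summed, GAPDH counts came to 10882 and 13566 in the mimic IP, 185658 and 81900 in the mimic FT, 3755 in the control IP and 10330 in the control FT. Its mimic log2 fold change was then -3.22.

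**Figure D1:**
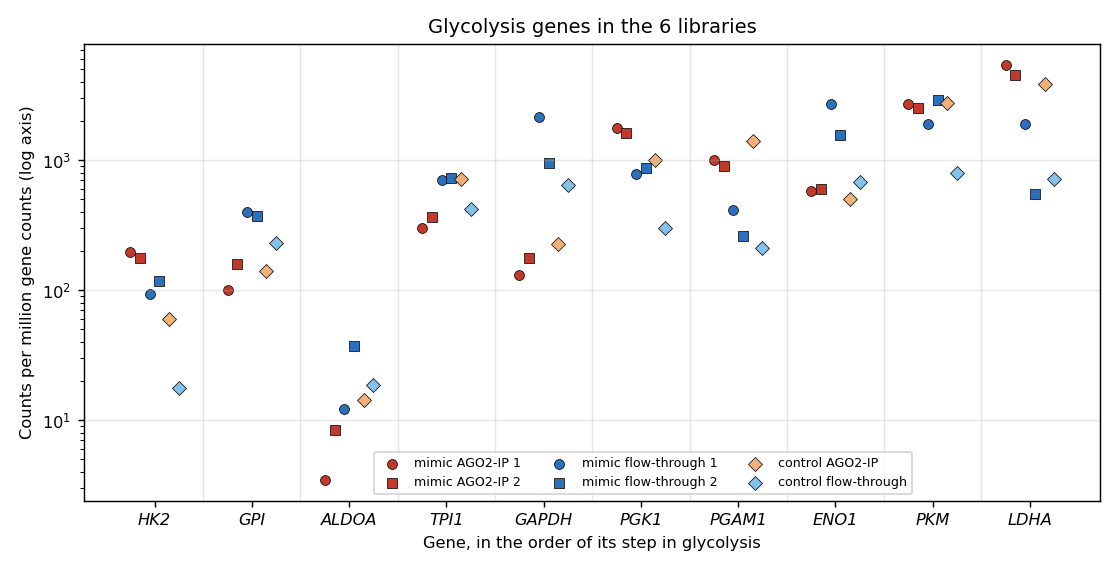
CPM (log axis) of the 10 glycolysis genes, in the order of their steps, with 1 point per library: red circles and squares are mimic IP 1 and 2, blue circles and squares mimic FT 1 and 2, and the orange and light blue diamonds the control IP and flow-through. GAPDH, ENO1, GPI and ALDOA sit lower in the AGO2-IP of mimic and control, while LDHA, PGAM1, PGK1 and HK2 sit higher.

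The first enzymes of the route divided in the same way. HK2, the hexokinase isoform induced in many tumours, traps glucose as its phosphate and lies on chromosome 2 (74834127 to 74893359, plus strand). It was at 195 and 175 CPM in the mimic IP, 93.7 and 117 CPM in the mimic FT, 60.2 CPM in the control IP and 17.8 CPM in the control FT. HK2 was thus higher in the AGO2-IP, with a mimic log2 fold change of 0.72 (SE 0.60) and a control ratio of 0.86.

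GPI, which turns glucose phosphate into fructose phosphate, lies on chromosome 19 (34359480 to 34402413, plus strand) and was the gene with the partial seed match. Its CPM were 99.8 and 159 in the mimic IP, 396 and 369 in the mimic FT, 140 in the control IP and 229 in the control FT. GPI was lower in the AGO2-IP with the mimic (log2 fold change -1.61, SE 0.606) and by about as much without it (log2 ratio -1.60). A protein-coding model on the same strand, ENSG00000266953, overlaps GPI from position 34396315, and read pairs that fall on both are not counted.

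ALDOA, the aldolase that splits the sugar into triose phosphates, had CPM of 3.47 and 8.47 in the mimic IP and 12.2 and 37.1 in the mimic FT, with 14.4 in the control IP and 18.5 in the control FT. Its mimic log2 fold change was -2.21 (SE 0.857), and the 4 library differences spanned -3.72 to -0.28, the widest range of the 10 genes. TPI1, the isomerase that interconverts the triose phosphates (chromosome 12, 6867119 to 6870948, plus strand), was at 299 and 361 CPM in the mimic IP against 702 and 729 in the mimic FT. The control libraries did not repeat that difference, with 707 CPM in the IP against 419 in the FT library. TPI1 had a mimic log2 fold change of -1.18 (SE 0.584) and a control log2 ratio of -0.14 (95% counting interval -0.20 to -0.08), which became 0.75 when the control libraries were scaled by library size alone.

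Past GAPDH, the ATP-yielding and later steps went both ways. PGK1 makes the first ATP of the route (chromosome X, 77910739 to 78129295, plus strand). It was at 1747 and 1621 CPM in the mimic IP, 784 and 869 CPM in the mimic FT, 994 CPM in the control IP and 300 CPM in the control FT. Its log2 values were close in mimic (0.95, SE 0.576) and control (0.84). PGAM1, the mutase that moves the phosphate group (chromosome 10, 97426191 to 97433444, plus strand), was at 999 and 905 CPM in the mimic IP and 411 and 260 in the mimic FT. In the control it was at 1406 CPM in the IP against 211 in the FT library, so PGAM1 was higher in the pull-down in each pair, by 1.5 on the log2 scale with the mimic (SE 0.572) and by 1.85 in the control.

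ENO1, the enolase that forms phosphoenolpyruvate (chromosome 1, 8861000 to 8879190, minus strand), showed the opposite side from PGAM1. Its CPM were 581 and 593 in the mimic IP, 2689 and 1551 in the mimic FT, 500 in the control IP and 676 in the control FT. The log2 value was -1.84 (SE 0.576) with the mimic, over 4 differences of -2.03 to -1.64, and -1.33 in the control. The ratio of ENO1 to PGAM1 counts within a library, which needs no scaling between libraries, was 0.581 and 0.655 in the mimic IP and 6.54 and 5.97 in the mimic FT. It was 0.356 in the control IP and 3.21 in the control FT.

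PKM, the pyruvate kinase that makes the last ATP (chromosome 15, 72199029 to 72231819, minus strand), was the gene whose mimic groups overlapped. It was at 2683 and 2505 CPM in the mimic IP and at 1894 and 2864 in the mimic FT, giving a log2 fold change of 0.02 (SE 0.596). In the control it was at 2724 CPM in the IP against 798 in the FT library, and its log2 ratio was 0.88.

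LDHA, the subunit of lactate dehydrogenase that favours lactate formation (chromosome 11, 18394560 to 18408425, plus strand), stood at the other end of the mimic range from GAPDH. It was at 5388 and 4486 CPM in the mimic IP, 1896 and 548 CPM in the mimic FT, 3856 CPM in the control IP and 709 CPM in the control FT. The groups did not overlap, but the 2 mimic FT libraries differed 3.46-fold in LDHA. The mimic log2 fold change was 2.10 (SE 0.639), which is 4.27-fold, and the control log2 ratio was 1.55. Within a library, LDHA counts were 41.3 and 25.3 times those of GAPDH in the mimic IP and 0.883 and 0.576 times in the mimic FT, and 17.2 and 1.11 times in the control IP and flow-through. With the stranded columns summed these ratios were 23.1, 12.6, 0.480, 0.325, 8.29 and 0.534 in the same order, so the missing antisense-overlap counts of GAPDH changed their size and not their order.

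**Figure D2:**
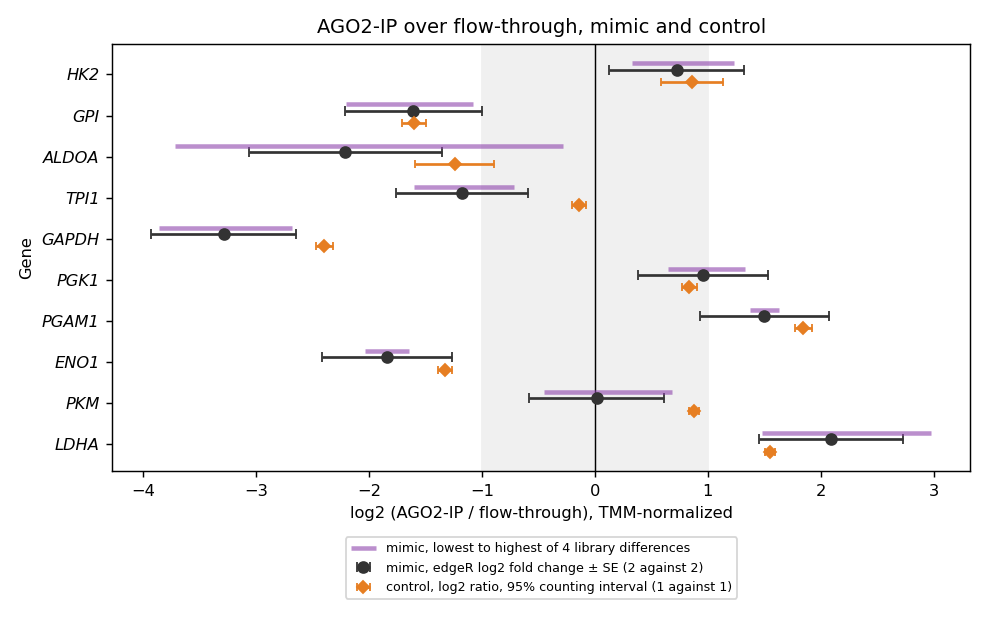
AGO2-IP over flow-through (log2, TMM-normalized) for each gene: black points are the edgeR log2 fold change of the mimic libraries with its SE (2 against 2), purple bars the lowest to highest of the 4 mimic library differences, and orange diamonds the control ratio with its 95% counting interval (1 against 1). GAPDH at -3.29 and LDHA at 2.10 are the ends of the mimic range, the grey band marks log2 values between -1 and 1, and TPI1 and PKM are the genes whose mimic and control values lie furthest apart beside GAPDH and ALDOA.

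Counted over the set, 5 of the 10 genes were lower in both mimic IP libraries than in either mimic FT library and 4 were higher, where 28.5% and 28.1% of all 13078 genes tested were lower and higher in that sense. A log2 fold change of -1 or less was seen in 5 genes (26.9% of all genes) and of 1 or more in 2 genes (20% of all genes). The median of the 10 was -0.58, against -0.11 over all genes tested. By edgeR with a Benjamini-Hochberg adjusted p of 0.05 or less and a log2 fold change past 1, 1 gene, GAPDH, was called lower (0.413% of all genes) and 0 were called higher (0.245% of all genes), while 6 of the 10 had an unadjusted p under 0.05 (23.8% of all genes). Since GAPDH entered the set for this value, nothing is read from its call.

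The number of calls moved with the fit. With the replicate number as a block, 2 genes were called lower, GAPDH and ENO1 (5.08% of all genes), and 1 higher, LDHA (4.6%). PyDESeq2 called GAPDH, ENO1 and ALDOA lower (8.26% of all genes) and LDHA higher (6.44%). With the GC trend described further on removed, 1 gene was called lower (2.36% of all genes) and 0 higher (3.32%), and with the block as well 3 lower and 2 higher (12.7% and 14%). The mimic FT libraries decided much of this. Without flow-through 1, 5 genes were called lower and 2 higher (20.6% and 20.2% of all genes), without flow-through 2 the counts were 2 and 0 (3.4% and 1.9%), and with either AGO2-IP library left out 0 genes of the set were called. In each of these fits the log2 fold changes of GAPDH, ENO1, GPI, TPI1 and ALDOA stayed below 0 and those of LDHA, PGAM1, PGK1 and HK2 above 0. The mimic IP and FT libraries of these genes did not overlap to begin with, so the kept signs are no independent support. For the fits without an AGO2-IP library the share of all genes called is not given here. Each has 1 library in a group, so the 0 calls are not read as a result on the set. GAPDH was at -3.07 without AGO2-IP 1 and at -3.60 without AGO2-IP 2, beside -3.29 in the main fit.

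The control pair shares no library with the mimic comparison that singled out GAPDH. The genes were named with earlier results of these data known, so the pair is not a blind check. In it 4 of the 10 genes had a log2 ratio of -1 or less (18.1% of the 8245 genes with a control ratio) and 2 had a ratio of 1 or more (15.9%). GAPDH, GPI, ENO1 and ALDOA were the 4 low genes, at -2.40, -1.60, -1.33 and -1.24, and PGAM1 and LDHA the 2 high genes, at 1.85 and 1.55. All 4 mimic differences and the control ratio had the same sign in 9 of the 10 genes (49.2% of 8225 genes), TPI1 included at a control ratio of -0.14, and the control ratio opposed all 4 mimic differences in 0 genes (11.6% of 8225 genes). With the control libraries scaled by library size alone, or with a summed count of 10, TPI1 changed sign (0.75 and 0.01) and the counts were 8 and 1. Mimic and control values of the 10 genes were correlated with r = 0.964 (Pearson) and rho = 0.891 (Spearman), and over 8106 protein-coding genes 0.597 and 0.556. These are correlations across genes, which are not independent replicates. Those over the 10 genes include the mimic value of GAPDH, which chose the set and is its lowest. They were not computed without GAPDH, so their height above the values over all protein-coding genes is not read as a result. There is 1 control library per fraction, so this pair has no replicate check, and its intervals are for counting error alone, as no molecular identifiers were read. Scaling by library size alone raised the control ratios, to -1.50 for GAPDH and -0.44 for ENO1.

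Levels of different genes are compared per kilobase of the canonical transcript. In CPM per kilobase GAPDH was at 1672 and 741 in the mimic FT, ENO1 at 1510 and 871, PKM at 822 and 1243, and LDHA at 846 and 245. GAPDH was the highest of the 10 in flow-through 1 and the third in flow-through 2, and these leading genes overlapped between the libraries. These levels use the unstranded counts, which hold 47.9% to 56.4% of those of GAPDH. In the mimic IP LDHA led with 2404 and 2002 CPM per kilobase, followed by PKM (1164 and 1087), PGAM1 (554 and 502), and then PGK1 (363 and 337) and ENO1 (326 and 333), which stood side by side. GAPDH was the seventh in both, at 101 and 138, below TPI1 at 221 and 268. The control gave GAPDH the first place in its flow-through (495 CPM per kilobase) and the seventh in its AGO2-IP (174). With the stranded columns summed GAPDH led in every flow-through library (2717, 1179 and 963 CPM per kilobase), and ranked 7 and 6 of 10 in the mimic IP (163 and 251) and 5 in the control IP (325).

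The whole set took a similar share of each fraction with the mimic, so the change lay in its make-up. The 10 genes held 1.21% and 1.10% of the gene counts of the mimic IP libraries, 1.10% and 0.830% of the mimic FT libraries, 1.06% of the control IP and 0.402% of the control FT. Of the counts on the 10 genes, GAPDH took 1.08% and 1.61% in the mimic IP against 19.5% and 11.5% in the mimic FT, and 2.11% against 15.9% in the control. LDHA took 44.4% and 40.8% in the mimic IP against 17.2% and 6.60% in the mimic FT, and 36.3% against 17.7% in the control. With the stranded columns summed the share of GAPDH was 1.90% and 3.19% in the mimic IP against 30.8% and 18.7% in the mimic FT, and 4.28% against 28.2% in the control. The 95% Wilson intervals of these shares were narrow beside the differences, the widest being 15.5% to 16.3% for GAPDH and 17.2% to 18.1% for LDHA in the control FT.

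**Figure D3:**
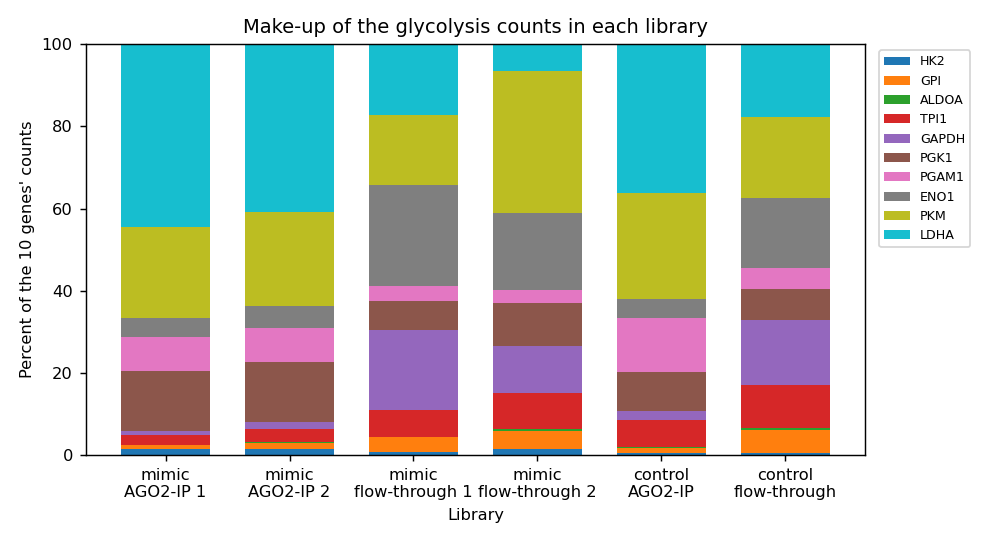
Share of each gene in the summed counts of the 10 glycolysis genes (unstranded counts, percent, stacked from 0 to 100) in each of the 6 libraries. GAPDH (purple) takes 1.08% to 2.11% of the AGO2-IP bars and 11.5% to 19.5% of the flow-through bars, while LDHA (cyan, top) takes 36.3% to 44.4% of the AGO2-IP bars and 6.60% to 17.7% of the flow-through bars.

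The effect of the mimic was asked within each fraction, and then on the AGO2-IP over flow-through ratio itself, in an edgeR fit of all 6 libraries in which the lone control libraries are assumed to vary like the mimic groups. None of the 10 genes was called in any of the 3 contrasts. In the AGO2-IP, mimic over control, HK2 was the gene with the largest value, a log2 fold change of 1.83 (SE 0.80) on 195 and 175 CPM against 60.2 CPM, with an adjusted p of 0.614. The other 9 ran from -1.04 for ALDOA to 0.98 for PGK1, GAPDH was at -0.32 (SE 0.731) and the adjusted p-values of the 10 lay between 0.614 and 0.970. Of 13319 genes, 22 were called lower (0.165%) and 0 higher (0%), while 1050 genes, HK2 among them, had an unadjusted p under 0.05 and PyDESeq2 called 83 genes lower (0.623%) and 68 higher (0.511%) but none of the 10.

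In the flow-through, mimic over control, HK2 again had the largest value, 2.18 (SE 0.823) on 93.7 and 117 CPM against 17.8 CPM, and GAPDH was at 0.77 (SE 0.765). All 10 log2 fold changes lay above 0, from 0.11 for ALDOA, beside a median of 0.19 over all genes, and every adjusted p was above 0.9999. Here 15 of 13319 genes were called lower (0.113%) and 0 higher (0%), and 285 had an unadjusted p under 0.05, HK2 among them. PyDESeq2 called 45 genes lower (0.338%) and 3 higher (0.0225%), again none of the 10. Mitochondrially encoded genes took 43.4% of the control FT counts, and leaving those genes out called none of the 10 either.

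The difference of the ratio, mimic minus control, was -1.09 for GAPDH (SE 1.05), -1.24 for TPI1 (SE 1.03), -1.15 for ALDOA (SE 1.42) and -1.06 for PKM (SE 1.08). It lay between -0.72 and 0.34 for the other 6 genes, with LDHA at 0.34 (SE 1.11). Each of these is about as large as its standard error or smaller, the adjusted p-values were 0.9999, and 0 of 13319 genes was called lower (0%) or higher (0%) by edgeR, while 82 genes and none of the 10 had an unadjusted p under 0.05. PyDESeq2 called 2 genes higher (0.015%) and none of the 10. Errors of this size leave differences of more than 2-fold in the ratio undetectable, so the contrasts do not show that the mimic left these genes alone.

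Transcript composition ran along with the split. The canonical transcripts of LDHA and PGK1 had the lowest GC content of the 10, 41.8% and 42.8%, followed by HK2 (50.5%), PGAM1 (52.7%), GPI (53.1%), TPI1 (54.0%), ENO1 (54.4%), GAPDH (56.1%), PKM (56.6%) and ALDOA (60.5%). Over the 10 genes GC content and the mimic log2 fold change were correlated with r = -0.735 and rho = -0.806, and over 11747 protein-coding genes -0.550 and -0.545. Without the sparsely counted ALDOA, r was -0.694 and rho -0.767 in the set, and these values still include GAPDH, which chose the set. PGAM1 and GPI, on opposite sides, differed little in GC content. With the control ratio the values were -0.574 and -0.479 over the 10 genes but 0.118 and 0.129 over 8106 protein-coding genes, so in the control pair the broad relation was weak and of the other sign. GC content also separated the 2 mimic FT libraries, with an r of 0.733 over the protein-coding genes between GC content and flow-through 2 minus flow-through 1. After each library's trend on GC content was removed, the mimic log2 fold change was -2.83 for GAPDH, -1.46 for ENO1, -1.29 for GPI, -0.95 for ALDOA and -0.75 for TPI1. It was 1.56 for LDHA, 1.74 for PGAM1, 0.80 for HK2, 0.74 for PKM and 0.22 for PGK1, so the same genes stood below and above 0 and PGK1 lost most of its value.

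**Figure D4:**
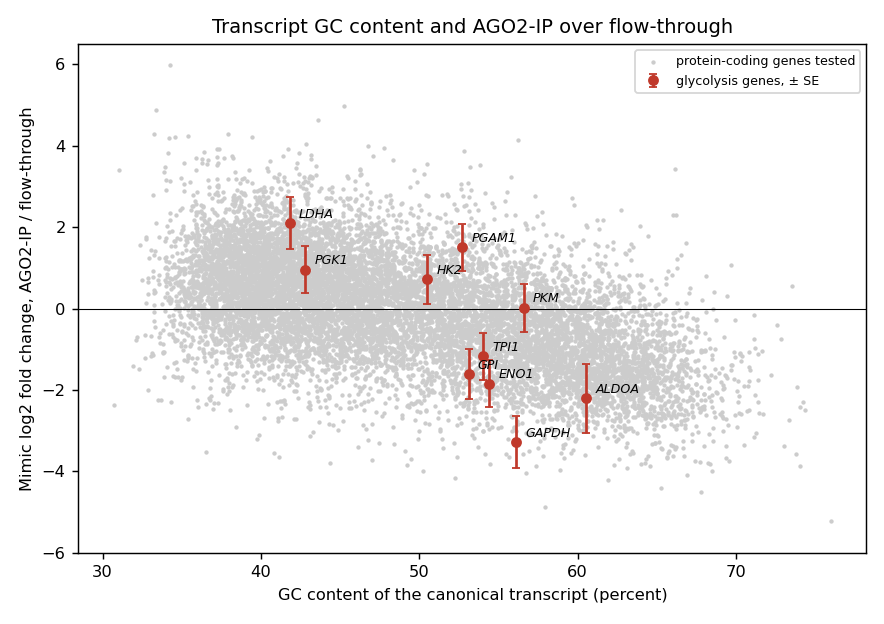
GC content of the canonical transcript (percent) against the mimic log2 fold change of AGO2-IP over flow-through, with the 11747 protein-coding genes tested in grey and the 10 glycolysis genes in red with their SE. LDHA and PGK1 (41.8% and 42.8% GC) lie above 0 and GAPDH (56.1% GC) lies at -3.29.

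The genes whose profile over the 6 libraries was most like that of GAPDH were not glycolytic. By Euclidean distance between log2 CPM profiles centred per gene, over 11897 other protein-coding genes, the nearest included RPL10 (0.532), H2AC20 (0.578), H3C3 (0.648) and RPS20 (0.670), that is 2 cytosolic ribosomal protein genes and 2 histone genes. Their mimic log2 fold changes ran from -3.43 to -2.83 and their control ratios from -2.88 to -2.38. They were picked on these same 6 libraries, so values near those of GAPDH follow from the choice. Of the glycolysis genes ENO1 ranked 348 and GPI 422, ALDOA and TPI1 ranked 1608 and 1865, and LDHA was the most distant at rank 11386. Among 79 cytosolic ribosomal protein genes tested, 6 were called lower (0.413% of all genes) and 0 higher, 29 and 1 with the replicate block (5.08% and 4.6%) and 40 and 0 with PyDESeq2 (8.26% and 6.44%), with a median log2 fold change of -1.72 in the mimic and -2.01 in the control. The transcripts of H2AC20, H3C3 and RPS20 have 486 to 519 bases, that of RPL10 has 2164 and that of GAPDH 1285, against a median of 3492 for protein-coding genes tested. Over the 10 glycolysis genes transcript length and the mimic log2 fold change had an r of 0.389 and a rho of 0.576. Over 11747 protein-coding genes these were 0.220 and 0.304. With the control ratio they were 0.260 and 0.394 over the 10 genes, and 0.136 and 0.199 over 8106 protein-coding genes.

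The rest of the pathway was read from a list of 31 further genes of glucose uptake, isoenzymes, regulators and the reverse route, of which 20 had the 200 summed counts needed for the test. None of the 20 was called lower or higher by edgeR (0.413% and 0.245% of all genes), and 5 had an unadjusted p under 0.05 (23.8% of all genes). A log2 fold change of -1 or less was seen in 5 (26.9% of all genes) and of 1 or more in 4 (20% of all genes). The median of the 20 was 0.04. These shares are near those over all genes. These genes also went both ways. SLC2A3, the high-affinity glucose transporter, was at 70.0 and 83.5 CPM in the mimic IP, 15.5 and 8.53 in the mimic FT, 99.8 in the control IP and 11.7 in the control FT. Its mimic log2 fold change was 2.69 (SE 0.637, edgeR adjusted p = 0.0647) and 2.18 in the control, and with the replicate block it was called (adjusted p = 0.0124).

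SLC2A1, the basal glucose transporter, stood on the other side, at 73.5 and 105 CPM in the mimic IP against 219 and 286 in the mimic FT. Its log2 fold change of -1.58 (SE 0.626) had an edgeR adjusted p of 0.164, and its control ratio was -0.13. The phosphofructokinase genes, which encode the committed step, differed in sign, with PFKM at 1.34 (SE 0.645), PFKP at -0.57 (SE 0.672) and PFKL at -1.46 (SE 0.728). In the control they were at 1.45, 0.83 and 0.63, and the mimic libraries of PFKP and PFKL overlapped. The regulators PFKFB2, PFKFB3 and PFKFB4, which set the level of the activator of phosphofructokinase, were at 1.96, 0.46 and 0.69 with the mimic and at 1.58, 1.36 and 1.47 in the control.

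HK1, the housekeeping hexokinase, resembled HK2, with 559 and 579 CPM in the mimic IP, 222 and 330 in the mimic FT and log2 values of 0.94 (SE 0.609) and 1.04 in the control. Of the genes that act in the reverse direction, FBP1, the gluconeogenic bisphosphatase, was at 7.08 and 7.07 CPM in the mimic IP and 31.0 and 25.1 in the mimic FT (log2 fold change -2.02, SE 0.663, adjusted p = 0.117), and G6PC3, a glucose phosphatase, at 7.19 and 10.4 against 41.2 and 36.6 (-2.18, SE 0.669, adjusted p = 0.103). G6PC3 was called with the replicate block (adjusted p = 0.0444), and PyDESeq2 called G6PC3 and FBP1 lower and SLC2A3 and PFKFB2 higher. The control ratios were -1.20 for FBP1 and -0.62 for G6PC3, the latter on 56.1 CPM in the IP and 46.4 in the FT library before TMM scaling. LDHB, the other lactate dehydrogenase subunit, was at 7.51 CPM or less in all 6 libraries.

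**Figure D5:**
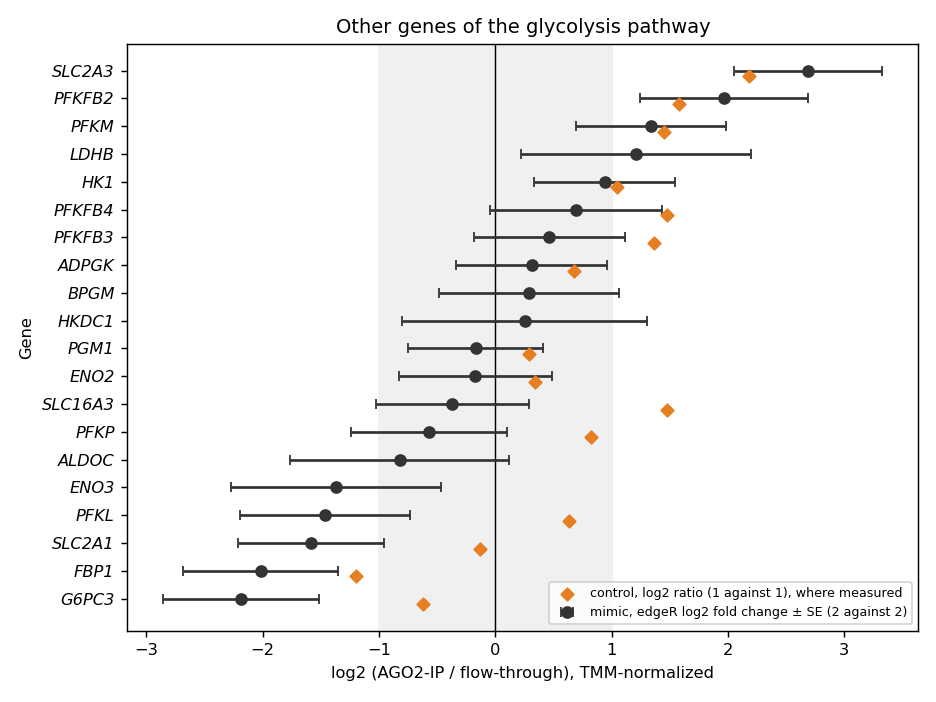
AGO2-IP over flow-through (log2, TMM-normalized) of the 20 further pathway genes that were tested, ordered by the mimic value: black points are the edgeR log2 fold change of the mimic libraries with its SE (2 against 2), and orange diamonds the control ratio of 1 library against 1 for the 15 genes that have one. SLC2A3 at 2.69 and G6PC3 at -2.18 are the ends of the range, and the grey band marks log2 values between -1 and 1.

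Neighbouring routes were summarised by their counts. Of 23 genes of the citrate cycle and pyruvate dehydrogenase, all tested, 0 were called lower and 1 higher (0.413% and 0.245% of all genes), 0 and 5 with the replicate block (5.08% and 4.6%) and 1 and 5 with PyDESeq2 (8.26% and 6.44%), with a median log2 fold change of 0.60 in the mimic and 0.27 in the control. Of 7 genes of the pentose phosphate route 0 were called lower or higher (0.413% and 0.245% of all genes). With the replicate block 1 was called lower and 1 higher (5.08% and 4.6%), as with PyDESeq2 (8.26% and 6.44%). Of the 7, 4 had an unadjusted p under 0.05 (23.8% of all genes), and the medians were -1.46 in the mimic and -0.60 in the control.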

How the data were processed

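Gene counts were measured by AGO2-RIP-seq in 6 libraries, grouped by their sample titles. Per the study's methods, the authors used FastQC 0.11.9 on the paired-end reads, Cutadapt 3.5 for trimming, and STAR 2.7.11b with GRCh38 for alignment and for counting pairs per gene (quant mode). The deposited values are raw counts (column 2, unstranded); the strand columns held 49.0% to 55.1% of the stranded counts in the first of them. The Ensembl release is not given in the sources used here. Of 60708 identifiers, 60507 were named from GENCODE 44 by their unversioned identifier and 201 were not. Rows naming no gene (21.45% to 95.03% of the pairs of a library) entered neither library sizes nor tests. The control libraries are assigned by their titles, which name the fraction, while a supplementary table of the study lists controls as replicates without one.

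Mimic AGO2-IP and flow-through were compared with edgeR 4.0.16 (R 4.3.3; glmQLFit, glmQLFTest, TMM) over the 13078 genes that summed to 200 counts or more, and mimic with control in a fit of 4 groups and 6 libraries (13319 genes). Calls needed a log2 fold change of 1 or more in size and a Benjamini-Hochberg adjusted p of 0.05 or less over all genes. The SE is the fold change over the square root of the F statistic. For the control pair, log2 ratios were taken from CPM after TMM (prior count 2), with no test, over 8245 genes. Intervals are 95% Wilson intervals. For the control ratios they were taken on the IP share of a gene's IP and FT counts and put on the log2 scale. They cover counting error only. The edgeR comparison of mimic IP with mimic FT was run on simulated counts, and the other steps were not. The titles number the mimic libraries in both fractions, and libraries sharing a number were treated as pairs only in the fits with the replicate block. The main fit compared the groups without pairing, so its SE, adjusted p-values and calls do not use it. Over all genes, the main fit called 0.413% lower and 0.245% higher. With the block these shares were 5.08% and 4.6%. Deviations of same-numbered libraries had an r of 0.324 (rho 0.236) over 13078 genes. The members and lists were chosen with earlier results of these data known. The named genes are the 10 members, those of a fixed list of 31 further pathway genes that were tested, the cell type markers and the 5 protein-coding genes nearest to GAPDH in profile, of which 1 is not reported here. Alternatives were DESeq2's size factors, library size alone, other count filters, the strand columns, no mitochondrial genes, a removed GC trend (lowess, span 0.2), PyDESeq2 0.5.4, the replicate block, a joint fit, adjusted p alone, a prior count of 0.5 and each replicate left out. The summed strand columns and the set without ALDOA were added after seeing the data.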

Additional observations from a re-analysis of the deposited data

How the results depend on the processing

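The signs of the log2 fold changes moved less than the calls, on the same mimic libraries throughout. Between mimic IP and mimic FT the log2 fold changes of GAPDH (-3.62 to -2.68), ENO1 (-2.02 to -1.40), GPI (-2.06 to -1.23), TPI1 (-1.47 to -0.75), ALDOA (-3.09 to -0.83), LDHA (1.56 to 2.84), PGAM1 (1.32 to 1.85), PGK1 (0.22 to 1.36) and HK2 (0.33 to 1.16) kept their sign under every alternative that gave a value. For each of these genes, both mimic IP libraries already lay on the same side of both mimic FT libraries. The alternatives reuse those libraries, so the kept signs are no independent support. The cause was not tested for any change listed here.

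The 1 gene called lower became 0 with DESeq2 size factors, with library size alone and with the first, second or both strand columns. It became 2 with the replicate block (5.08% of all genes), 3 with the GC trend removed as well (12.7%) and 3 with PyDESeq2 (8.26%). The 0 genes called higher became 1 with the replicate block (4.6% of all genes), 2 with the GC trend removed as well (14%) and 1 with PyDESeq2 (6.44%). The 5 genes at a log2 fold change of -1 or less became 3 with the GC trend removed and 3 to 5 with a replicate left out, the 2 at 1 or more became 4 with a summed count of 10 and 2 to 4 with a replicate left out. Of the further pathway genes, the 0 called lower became 2 with 200 counts in every library and 1 with the replicate block (5.08% of all genes). They became 2 with the block and the GC trend removed (12.7%) and 2 with PyDESeq2 (8.26%). The 0 called higher became 1 with 200 counts in every library, 1 with the GC trend removed (3.32% of all genes) and 1 with the replicate block (4.6%). They became 6 with the block and the GC trend removed (14%) and 2 with PyDESeq2 (6.44%). For the other settings the share over all genes is not given here. In the control pair the 4 genes at -1 or less became 1 with library size alone, and the 2 at 1 or more became 5 with library size alone and 4 with a summed count of 10. Library size alone raised every control ratio of the set, from -2.40 to -1.50 for GAPDH and from 1.55 to 2.44 for LDHA. No gene of the set was called in the comparisons of mimic with control under any alternative, PyDESeq2 included.

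Changes of sign were all in values near 0 or within their standard error. PKM, at 0.02 between the mimic fractions, was at -0.16 with 200 counts in every library, -0.083 and -0.068 with the first and second strand columns, and -0.47 to 0.63 with a replicate left out. In mimic over control IP, GPI (0.11) was at -0.11 with library size alone, -0.036 with the second strand column and -0.33 to 0.42 with a replicate left out, GAPDH (-0.32) at 0.17 with a summed count of 10 and 0.17 with the GC trend removed, PGAM1 (-0.35) at 0.15 with a summed count of 10, PKM (0.15) at -0.070 with library size alone, and LDHA (0.57) at -0.022 with the GC trend removed. In mimic over control FT, ALDOA (0.11) was at -0.081 with the second strand column, -0.50 with the GC trend removed and -1.32 to 0.79 with a replicate left out, and LDHA (0.23) at -0.59 to 0.71. In the difference of the ratios, GPI (-0.21) was at 0.33 and ALDOA (-1.15) at 0.21 with the GC trend removed, PGK1 (-0.08) at 0.12 with a summed count of 10 and 0.081 with 200 counts in every library, and LDHA (0.34) at -0.43 with library size alone and -0.28 with the GC trend removed. With a replicate left out these differences ran from -0.69 to 0.11 for HK2, -0.49 to 0.10 for GPI, -1.86 to 0.24 for ALDOA, -0.36 to 0.27 for PGK1 and -0.17 to 1.14 for LDHA.

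With 200 counts required in every library ALDOA had no value, nor had HK2 where the control FT entered. Depth on genes limits the control pair, where HK2 and ALDOA had 138 and 144 counts in the flow-through, and 2 libraries per mimic group limit every test.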

Other observations

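Annotated pseudogenes named after the 10 genes numbered 102, of which 65 belong to GAPDH, and 81 of the 102 had a count in at least 1 library. Their counts summed to 286 and 266 in the mimic IP, 611 and 842 in the mimic FT, 136 in the control IP and 95 in the control FT, which is 0.0505% to 0.304% of the counts of the 10 genes. The counts of GAPDH pseudogenes were 37 and 55 in the mimic IP, 346 and 337 in the mimic FT, 31 in the control IP and 42 in the control FT, or 0.343% to 1.71% of those of GAPDH. Read pairs that map to a gene and to its pseudogene alike are not counted, and how many were lost for each gene cannot be seen in the deposited tables.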
